A study of Mus musculus with 36 samples.

Results

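The nuclear genes of oxidative phosphorylation were followed in mouse liver over the day, with and without the clock gene Bmal1. Members were chosen by name from the gene count table: symbols starting with Nduf, Uqcr, Atp5 or Cox4 to Cox8, and Sdha, Sdhb, Sdhc and Sdhd. Of 21654 genes listed, 90 carried such a symbol after 1 pseudogene was left out, and 84 of them reached 1 CPM (counts per gene scaled to the library total) on average over the 36 libraries. All 84 entered the tests, among 13201 genes with enough counts. By complex they were 7 core and 29 accessory subunits of complex I, 4 assembly factors of complex I, 4 subunits of complex II, 8 of complex III, 12 of complex IV and 15 of complex V. The remaining 5 share a name with the family without being structural subunits: Cox7a2l, a supercomplex assembly factor; Ndufa4l2, a relative of Ndufa4; Atp5s and Atp5sl, mitochondrial proteins named after ATP synthase; and Cox4nb (Emc8), a subunit of a membrane protein complex of the endoplasmic reticulum.

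Oxidative phosphorylation takes place in the inner mitochondrial membrane. Complex I (NADH dehydrogenase) and complex II (succinate dehydrogenase) pass electrons to ubiquinone, complex III passes them to cytochrome c and complex IV (cytochrome c oxidase) to oxygen. Complexes I, III and IV pump protons, and complex V (ATP synthase) uses the returning protons to make ATP. All but complex II combine nuclear subunits with a few made from mitochondrial DNA, so the nuclear genes must be expressed in balance with each other and with the mitochondrial genome. In liver, the pathway provides ATP for gluconeogenesis, urea synthesis and lipid handling, which all vary between feeding and fasting.

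Livers were taken from C57BL/6 mice on an even light-dark cycle with free access to food, at 6 times of day counted from lights on and written as zeitgeber time (ZT): ZT0, 4, 8, 12, 16 and 20. At each time there were 3 wild-type mice and 3 Bmal1 knockout mice, 1 library per mouse. The knockout mice were supplied by another laboratory, the series title calls the deletion pre-natal, and the labels do not say which exons it removes. Each genotype comprised 9 males and 9 females by label. Ages ran from 6.4 to 13.9 weeks in wild type (median 10.9) and from 8 to 13.9 weeks in knockout (median 13.9). Age was a term in an alternative fit only. Bmal1 (Arntl) is the transcription factor that drives the circadian clock as a partner of CLOCK. Its messenger RNA ran from 0.793 CPM at ZT8 to 41.3 CPM at ZT20 in single wild-type livers, and stayed between 14.6 and 24 CPM in all 18 knockout livers, so counts over the whole gene showed the lost daily cycle but do not check a deletion of single exons.

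Totals lay between 12657858 and 12839653 counts per library. The 12 libraries of ZT16 and ZT20 stood apart from the 24 others in both genotypes. On the leading principal component of all genes, which held 32.8% of the variance, they lay between 14.2 and 103, and the other libraries between -37.2 and -12.5. Across genes, their log2 deviations fell with GC content (Spearman's rho from -0.61 to -0.16 per library), while those of all other libraries rose with it (0.16 to 0.47). Wild type replicate 3 at ZT16 is labelled female but held 4 counts of Xist and 1874 of Ddx3y. None of 5 hepatocyte markers tested passed between genotypes, whereas some or all markers of other liver cells were called lower in knockout, where 18.1% of all genes were: 12 of 12 for Kupffer cells, 6 of 9 for sinusoidal endothelium, 3 of 7 for stellate cells and 1 of 4 for cholangiocytes. Of these lists only the last had a marker called higher, Sox9 (log2 difference 1.35), and Stab2, Lyve1 and Col1a1 had positive differences that were not called. The summed Kupffer markers ran from 138 to 574 CPM (median 300) in wild type and from 95.3 to 435 CPM (median 181) in knockout.

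The promoters of 4 genes are printed because these were the members called between genotypes at 1 or more single times of day. Each line holds the 250 bases before the transcription start, 5′ to 3′, from RefSeq on GRCm38.p6: Cox7a2l at chr17:83514334-83514583, minus strand; Cox7a1 at chr7:30183921-30184170, plus strand; Ndufaf4 at chr4:24897833-24898082, plus strand; and Atp5sl (RefSeq Dmac2) at chr7:25619164-25619413, plus strand. Capitals mark matches, on either strand, to the 7 motifs described with the promoters of all members.
Cox7a2l: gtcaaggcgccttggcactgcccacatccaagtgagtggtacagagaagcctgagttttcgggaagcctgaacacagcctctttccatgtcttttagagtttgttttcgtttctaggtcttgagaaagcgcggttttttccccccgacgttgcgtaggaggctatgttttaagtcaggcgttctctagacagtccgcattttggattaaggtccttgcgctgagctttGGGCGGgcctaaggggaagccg
Cox7a1: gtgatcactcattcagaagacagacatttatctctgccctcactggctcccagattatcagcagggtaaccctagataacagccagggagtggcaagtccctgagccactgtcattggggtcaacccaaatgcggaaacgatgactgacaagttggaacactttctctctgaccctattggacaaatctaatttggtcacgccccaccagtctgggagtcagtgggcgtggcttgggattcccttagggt
Ndufaf4: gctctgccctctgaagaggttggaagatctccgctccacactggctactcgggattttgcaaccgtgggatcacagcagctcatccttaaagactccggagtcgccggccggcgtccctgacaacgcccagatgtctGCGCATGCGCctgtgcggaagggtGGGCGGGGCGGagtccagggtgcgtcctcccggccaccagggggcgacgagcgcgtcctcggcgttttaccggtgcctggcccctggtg
Atp5sl: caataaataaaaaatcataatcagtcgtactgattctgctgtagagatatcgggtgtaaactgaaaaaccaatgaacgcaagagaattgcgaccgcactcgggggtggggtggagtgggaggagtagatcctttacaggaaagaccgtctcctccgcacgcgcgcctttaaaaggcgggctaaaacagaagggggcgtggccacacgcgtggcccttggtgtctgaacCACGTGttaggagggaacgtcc
The Cox7a2l stretch held a single GC box, Ndufaf4 an NRF1 match and a pair of overlapping GC boxes, and Atp5sl an E-box, the kind of site that BMAL1 and CLOCK bind. The Cox7a1 stretch held none of the 7 motifs.

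The first question was which members differed between genotypes over the whole day. Few did: 6 of 84 were higher in knockout and 5 were lower, by edgeR's quasi-likelihood test on the mean of the 6 knockout-minus-wild-type differences, with Benjamini-Hochberg adjustment over all 13201 genes. That is 13.1% of the members, where 35.7% of all genes tested were called, 17.6% higher and 18.1% lower. Of the 5 lower, Cox7a1 reached the minimum of 1 CPM through wild type alone, which favoured that direction. The median log2 difference was -0.04 for the members and 0.01 for all genes, and the median absolute difference 0.07 and 0.18. The other 73 members did not pass the test, which does not show that they were equal. The count of 6 higher became 11 when the libraries of ZT16 and ZT20 were left out, with Ndufa6, Ndufa11, Ndufa12, Ndufs5 and Atp5g2 added, and the members' median then turned to 0.01 with 50 of 84 positive, against 31 with all libraries.

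**Figure D1:**
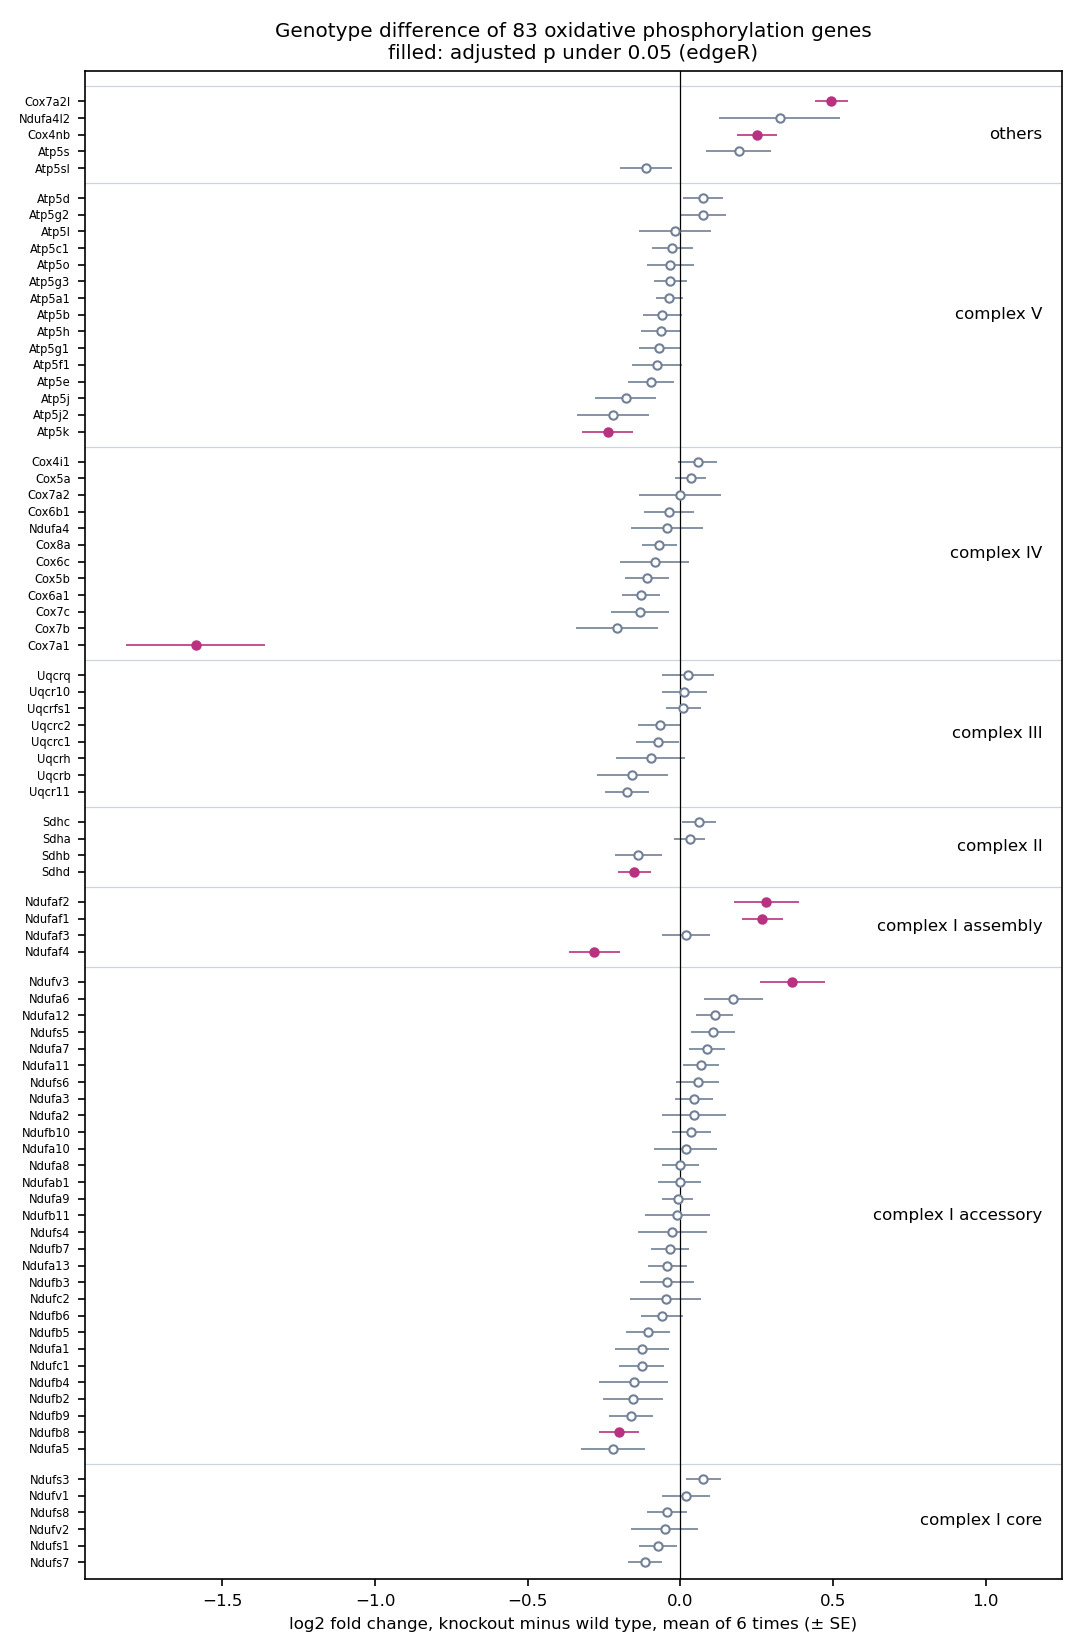
Log2 fold change of 83 of the 84 members, knockout minus wild type, averaged over 6 times, with its standard error on the horizontal axis and members grouped by complex. Filled points mark the 10 of them with an adjusted p under 0.05, and most members lie close to 0 except Cox7a1 at -1.59. Cox7a1, also filled, reached the minimum of 1 CPM through wild type alone, which favoured that direction.

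Core subunits of complex I together hold the flavin and the iron-sulfur clusters that carry electrons, though not each of them holds one. Differences of 6 of the 7, none of them called, lay between -0.12 (Ndufs7) and 0.08 (Ndufs3).

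Accessory subunits surround the core and are needed for its assembly and stability, and 2 of 29 were called. Ndufv3, a small subunit of the NADH-oxidising module, was read in wild type at 73.8, 71.9 and 67.5 CPM at ZT0 and at 74.1, 88.2 and 70.4 CPM at ZT4. The knockout values were 103.9, 93.5 and 97.6 CPM at ZT0 and 115, 102 and 119 CPM at ZT4. The genotypes did not overlap at these 2 times, while at ZT16 wild type ran from 42.8 to 121 CPM and enclosed all 3 knockout livers. Over all times Ndufv3 rose by 0.37 ± 0.11 (log2, SE, adjusted p = 0.00746 by edgeR). Ndufb8, a membrane-arm subunit whose protein is often blotted as a measure of assembled complex I, was lower by 0.20 on the log2 scale (SE 0.07, adjusted p = 0.0172 by edgeR), with 128 to 296 CPM in wild type and 118 to 194 CPM in knockout. With each library's trend against GC content removed, its adjusted p was 0.0741. The other 27 accessory subunits lay between -0.22 (Ndufa5) and 0.17 (Ndufa6).

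Of the 4 complex I assembly factors in the list, 3 were called, in both directions. Ndufaf1, a chaperone of the membrane arm, ran from 23.2 to 51.9 CPM in wild type (median 34.5) and from 29.4 to 64.6 CPM in knockout (median 42.7), a log2 difference of 0.27 ± 0.07 (SE, adjusted p = 0.0025 by edgeR). Ndufaf2, which acts late in assembly, was read at 10.6, 13.2 and 10.9 CPM in wild type and at 15.6, 16.8 and 14.9 CPM in knockout at ZT0, without overlap, and the genotypes overlapped at ZT4. Over all times it was higher by 0.28 ± 0.11 on the log2 scale (SE, adjusted p = 0.0402 by edgeR), and the call was lost in 20 of 36 fits that each left out 1 library, with adjusted p up to 0.0882. Ndufaf4, which joins the early assembly intermediate, was lower by 0.28 on the log2 scale (SE 0.08, adjusted p = 0.0101 by edgeR). Ndufaf3, its binding partner, differed by 0.02 ± 0.08 and did not pass the test.

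The difference of Ndufaf4 was largest at ZT12. There the wild-type livers were read at 57.4, 48.9 and 63.6 CPM and the knockout livers at 32.3, 33.9 and 34.7 CPM. The 3 knockout livers lay close together and below all 3 wild-type livers, with a log2 difference of -0.75 ± 0.21 (SE, adjusted p = 0.0168 by edgeR). At ZT0 the ranges were 41.1 to 47.3 CPM in wild type and 41.7 to 55.2 CPM in knockout, and they overlapped. The ZT12 call was lost without wild type replicate 3, knockout replicate 1 or knockout replicate 3 of that time, with adjusted p up to 0.104, while the difference stayed between -0.83 and -0.63. Whether the difference changed over the 6 times was tested separately and did not pass (adjusted p = 0.704 by edgeR, 5 degrees of freedom).

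In complex II, which also works in the citric acid cycle, Sdhd was the single called subunit of 4. Sdhd, a membrane anchor, was read in wild type at 227, 258 and 261 CPM at ZT0 and in knockout at 193, 209 and 223 CPM, without overlap. At ZT4 the ranges were 207 to 223 and 215 to 228 CPM and overlapped. Over all times Sdhd was lower by 0.15 on the log2 scale (SE 0.05, adjusted p = 0.0274 by edgeR), and without a filter on low counts the adjusted p was 0.105. The other 3 subunits were Sdha, which binds the flavin (0.03 ± 0.05), Sdhb, the iron-sulfur subunit (-0.14 ± 0.08), and Sdhc, the other anchor (0.06 ± 0.06), none called.

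In complex III, none of the 8 subunits was called by edgeR, and 1 had an unadjusted p under 0.05. This was Uqcr11, a small subunit, with a log2 difference of -0.18 ± 0.07 (SE, adjusted p = 0.0572 by edgeR). DESeq2 called it at an adjusted p of 0.0354, as did 3 other settings of edgeR. The remaining differences lay between -0.16 (Uqcrb) and 0.02 (Uqcrq).

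In complex IV, Cox7a1 was called and the other 11 subunits were not. Cox7a1 is the isoform of subunit 7a that dominates in heart, skeletal muscle and brown fat, and it was near the floor in liver. In wild type it was read at 1.24, 1.94 and 2.00 CPM at ZT0, at 2.26, 2.13 and 2.38 CPM at ZT20, and at most at 5.69 CPM in replicate 1 of ZT16. In knockout it was read at 0.161, 0.630 and 0.952 CPM at ZT0 and at 0.600, 0.646 and 0.940 CPM at ZT20, with a highest value of 1.36 CPM at ZT12. The genotypes did not overlap at ZT0, ZT4, ZT8 and ZT20 and overlapped at ZT12 and ZT16. Wild-type livers averaged 1.98 CPM and knockout livers 0.659 CPM, so it met the minimum of 1 CPM, which made it a member, through wild type alone. The log2 difference over all times, -1.59 ± 0.23 (SE), was negative at all 6 times and is given as a description without its p, because the minimum favoured this direction. Markers of muscle and brown fat summed to at most 0.235 CPM in any library. In bulk liver, fewer cells of a type and less RNA per cell cannot be told apart, and the part of the lower Kupffer, endothelial and stellate markers in this result was not tested.

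Cox7a2, the form of the subunit that most tissues use, had 237 CPM on average and a log2 difference of 0.00 ± 0.13. Other muscle or tissue-restricted forms did not reach the minimum: Cox6b2 was read with 54 counts over all wild-type and 11 over all knockout livers, Cox4i2 with 37 counts over the 36 libraries, Cox6a2 with 10 and Cox8b with 8. Their liver counterparts Cox4i1, Cox6a1, Cox6b1 and Cox8a averaged 387, 239, 266 and 195 CPM, with log2 differences between -0.13 and 0.06, none called. Just inside the minimum of 1 CPM were Cox7a1 at 1.31 CPM and Ndufa4l2 at 1.59 CPM, and just outside was Atp5l2 at 0.431 CPM.

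In complex V, 1 of 15 subunits was called and 13 of 15 had a negative difference. Atp5k (subunit e), which helps ATP synthase dimers form, was read in wild type at 110, 103 and 98.5 CPM at ZT12 and in knockout at 74.7, 82.1 and 93.7 CPM, without overlap. At ZT0 the ranges were 105 to 116 CPM and 97.3 to 108 CPM and overlapped. Over all times it was lower by 0.24 on the log2 scale (SE 0.08, adjusted p = 0.0264 by edgeR), and the adjusted p was 0.0591 with the GC trend removed. The catalytic subunits Atp5a1 and Atp5b, the most abundant members at 1162 and 1406 CPM, differed by -0.04 ± 0.04 and -0.06 ± 0.06 and did not pass. The 3 genes for the membrane ring, Atp5g1, Atp5g2 and Atp5g3, lay between -0.07 and 0.07 and did not pass either.

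Cox7a2l had the smallest p of all members. Its product is named as a supercomplex assembly factor, and whether it acts as one in these C57BL/6 livers was not tested. The gene lies at chr17:83901259-83913673 (mm9). In wild type it was read at 82.1, 85.4 and 94.4 CPM at ZT0 and in knockout at 125, 128 and 123 CPM. At ZT4 the values were 76.1, 85.2 and 98.5 CPM against 123, 116 and 122 CPM, and at ZT8 they were 99.4, 106 and 103 CPM against 120, 130 and 126 CPM. At each of the 6 times all 3 knockout livers lay above all 3 wild-type livers.

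Over the whole day Cox7a2l ran from 76.1 to 149 CPM in wild type (median 98.9) and from 116 to 229 CPM in knockout (median 129). The 18 livers of each genotype overlapped. Both genotypes had their highest liver at ZT16, with 149 CPM and 229 CPM. The log2 difference was 0.49 ± 0.05 (SE, adjusted p = 3.95e-08 by edgeR). No member separated all 18 knockout from all 18 wild-type livers, against 0.424% of all genes. At single times the difference ran from 0.29 at ZT8, not called (adjusted p = 0.213), to 0.63 at ZT20 (adjusted p = 0.00662), and it did not change detectably over the times (adjusted p = 0.967).

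**Figure D2:**
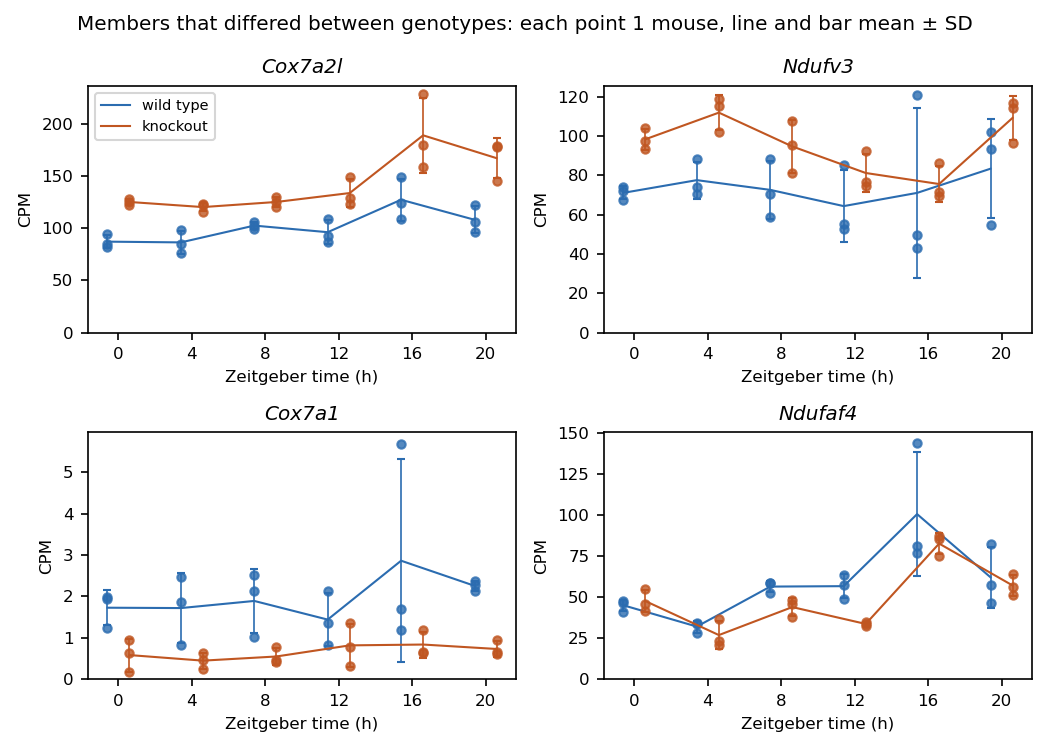
CPM of Cox7a2l, Ndufv3, Cox7a1 and Ndufaf4 against zeitgeber time, 1 point per mouse, with lines and bars for the mean and SD of 3 mice per genotype. Knockout points of Cox7a2l lie above the wild-type points at every time, those of Ndufaf4 lie below at ZT12 (32.3 to 34.7 against 48.9 to 63.6 CPM), and wild type replicate 1 at ZT16 is the highest point of Cox7a1.

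The remaining genes outside the complexes were mixed. Cox4nb was read at ZT8 at 20.9, 22.6 and 22.8 CPM in wild type and at 26.9, 28.9 and 29.1 CPM in knockout, without overlap, while at ZT4 the wild-type livers enclosed the knockout livers. It rose by 0.25 ± 0.07 (log2, SE, adjusted p = 0.00355 by edgeR) and was higher in knockout at all 6 times. Atp5s (0.19 ± 0.11) and Ndufa4l2 (0.32 ± 0.20) did not pass. Atp5sl, whose product takes part in complex I assembly, differed by -0.11 ± 0.09 over all times and was not called.

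At ZT8, however, Atp5sl was the only member called. Its wild-type livers were read at 74.9, 51.1 and 63.9 CPM and its knockout livers at 32.96, 40.1 and 37.8 CPM, without overlap. At ZT0 the values were 31.4, 29.6 and 33.4 CPM against 34.5, 28.5 and 30.8 CPM, with overlap. The peak of the wild-type course at ZT8 was thus lower in knockout by 0.77 on the log2 scale (SE 0.21, adjusted p = 0.0171 by edgeR). The call was lost in 4 of 36 fits that left out 1 library, each of them a ZT8 library, with adjusted p up to 0.102. The test of a change with time gave an unadjusted p of 0.028 and an adjusted p of 0.37, so the dependence on time did not pass.

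The differences at single times were next compared across the list. From ZT0 to ZT20, called members numbered 1, 1, 1, 2, 2 and 1, against 1.97%, 3.56%, 8.56%, 11.9%, 8.61% and 3.38% of all genes. Cox7a2l was called at each time but ZT8, with Atp5sl at ZT8, Ndufaf4 at ZT12 and Cox7a1 at ZT16 as the others. In 36 fits that each left out 1 library, its call was lost in 7 at ZT0 and 7 at ZT4. At ZT12, ZT16 and ZT20 the Cox7a2l call was lost in 3, 2 and 1 of these fits. The Cox7a1 call at ZT16 (-1.80 ± 0.53), which the 1 CPM minimum also favoured, was lost in 4 of these fits. They left out wild type replicate 1, where the difference was -0.71, or knockout replicate 1, 2 or 3 of ZT16. For no member did the genotype difference change with time at an adjusted p under 0.05 (edgeR, 1 at an unadjusted p under 0.05; DESeq2, 0 called and 2 unadjusted), against 1.67% of all genes.

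At ZT4 most members had small differences of the same sign. At that time, 80 of 84 had a positive difference, with a median of 0.18 where all genes had -0.01. There, 41 members had all 3 knockout livers above all 3 wild-type livers and 2 had them below, 51.2% of the members where 25.5% of all genes did not overlap. Ndufs3, a core subunit of complex I, gave 118, 111 and 115 CPM in wild type and 143, 149 and 145 CPM in knockout. Ndufa10, an accessory subunit, gave 129, 131 and 121 CPM against 156, 155 and 170 CPM. Both sets were free of overlap, and neither passed the test across all genes at that time (Ndufs3: 0.35 ± 0.14 on the log2 scale, adjusted p = 0.183 by edgeR).

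The sign at ZT4 was alike in the complexes: 35 of 36 core and accessory subunits of complex I, 4 of 4 of complex II, 8 of 8 of complex III, 11 of 12 of complex IV and 15 of 15 of complex V had a positive difference. Its median stayed between 0.12 and 0.20 when any 1 library was left out and between 0.16 and 0.18 under the other settings, each with 73 or more members positive. Members share each library, so 84 genes are not 84 independent observations, and no p is given for the list. At ZT8 the direction was the opposite, with 66 of 84 negative, a median of -0.09, and 24 members lying wholly below wild type and 4 wholly above (33.3%, against 31.8% of all genes). Without wild type replicate 1 of ZT8 that median was 0.01 and 43 members were positive.

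At the remaining times the median was near 0 or rested on a single library. The median was 0.06 at ZT0 with 57 positive and -0.02 at ZT12 with 40 positive. At ZT0 and ZT12, 17.9% and 11.9% of the members did not overlap, against 25.4% and 28.3% of all genes. At ZT16 the median was -0.14 with 22 positive, but without wild type replicate 1 it was 0.13 with 54 positive, and 6 members were then called (Ndufa6, Ndufa10, Ndufaf1, Ndufaf2, Atp5s and Cox7a2l). At ZT20 the median was -0.19 with 18 positive, and -0.04 with 39 positive without wild type replicate 3. Members without overlap were 4.76% at each of these last times, against 17.1% and 12.4% of all genes.

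**Figure D3:**
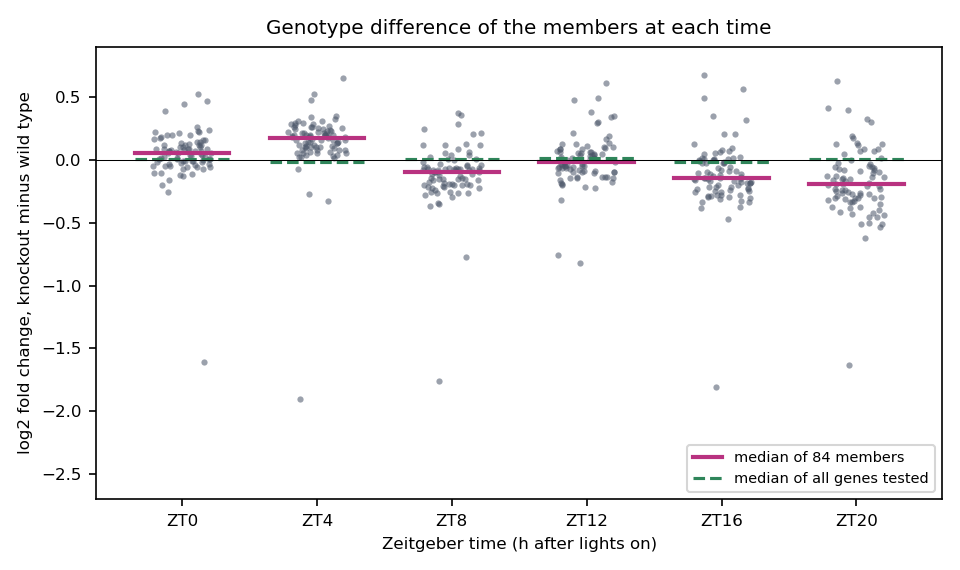
Log2 fold change, knockout minus wild type, of each of the 84 members at 6 zeitgeber times, with the median of the members (solid) and of all genes tested (dashed). The members' median is 0.18 at ZT4 and -0.19 at ZT20, while the median of all genes stays within 0.02 of 0; the low points near -1.6 to -1.9 are Cox7a1.

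More members changed over the day than differed between genotypes. A 24 h cosine curve passed the test in 55 of 84 members in wild type (65.5%, against 56.4% of all genes) and in 52 in knockout (61.9%, against 48.3%). It passed in both genotypes in 45 members (38.0% of all genes did) and in neither in 22. The median fitted peak-to-trough ratio over the 84 was 1.67 in wild type and 1.54 in knockout. Of the rhythmic members, 51 in wild type and 42 in knockout peaked between ZT14 and ZT22, and 4 and 10 between ZT2 and ZT10. Of all rhythmic genes, 3564 of 7451 in wild type and 3187 of 6382 in knockout peaked in the former window, and 3240 and 3102 in the latter. In no member did the curve differ between genotypes at an adjusted p under 0.05 (edgeR, 1 unadjusted; DESeq2, 0 and 2 unadjusted; lowest adjusted p in edgeR 0.287), against 2.23% of all genes.

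Few of these rhythms passed without the libraries of ZT16 and ZT20. Such a fit covers ZT0 to ZT12 only, so it cannot separate these libraries from the loss of those times. Without them, 3 members were rhythmic in wild type (Atp5sl, Ndufs1 and Uqcrc2) and 1 in knockout (Ndufb10), against 16.3% and 0.724% of all genes. Ndufb10 was not among the 52 members rhythmic in knockout with all libraries. Members took 1.54% to 2.70% of all counts in the ZT16 and ZT20 libraries and 1.47% to 1.73% in the others. The highest share, 2.70%, was in wild type replicate 1 of ZT16, where the median member stood 0.91 above its own mean on the log2 scale. In 9 members all 12 libraries of ZT16 and ZT20 lay above the 24 others (Ndufa6, Ndufb5, Ndufb11, Ndufs6, Uqcrb, Uqcrh, Cox6c, Atp5c1 and Atp5f1), and in 2 they lay below (Uqcrc1 and Atp5d), where 1.14% and 5.48% of all genes did so.

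Cox7b, a small subunit of complex IV, was raised most among the subunits at ZT16 and ZT20 by the mean of both genotypes. In wild type it was read at 190 to 252 CPM at ZT0 and ZT12, and at 1261, 342 and 435 CPM at ZT16. In knockout it was read at 180 to 234 CPM at ZT0 and ZT12, and at 639, 425 and 490 CPM at ZT16. All 6 livers of ZT16 lay above all livers of ZT0 to ZT12. Uqcrb, a complex III subunit next to the ubiquinone site, followed the same course, with 813, 290 and 316 CPM in wild type and 462, 411 and 397 CPM in knockout at ZT16. Uqcrc1, a core protein of complex III, went the other way, from 267, 281 and 324 CPM at ZT0 to 107, 222 and 132 CPM at ZT20 in wild type and from 297, 262 and 279 CPM to 178, 147 and 115 CPM in knockout. The smallest p for a rhythm in complexes I, III and V belonged in wild type to Ndufs1, Uqcrc2 and Atp5c1, which ran from 126 to 332, from 301 to 770 and from 302 to 830 CPM, with their highest liver at ZT16 or ZT20. Ndufv1, the NADH-binding core subunit of complex I, was, like Uqcrc1, low at ZT16, at 83.3, 152 and 108 CPM in wild type and 93.9, 109 and 77.5 CPM in knockout.

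**Figure D4:**
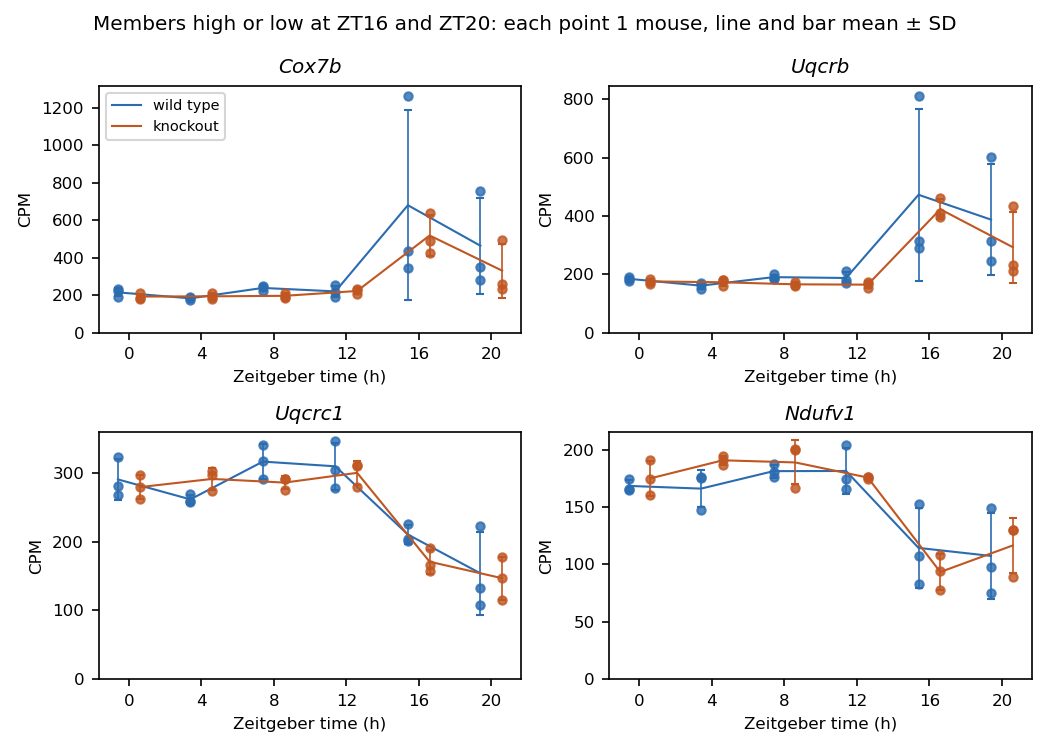
CPM of Cox7b, Uqcrb, Uqcrc1 and Ndufv1 against zeitgeber time, 1 point per mouse, with lines and bars for the mean and SD of 3 mice per genotype. Both genotypes of Cox7b and Uqcrb are high and spread out at ZT16 and ZT20, up to 1261 and 813 CPM in wild type, and both genotypes of Uqcrc1 and Ndufv1 are low there.

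The size of the change at ZT16 and ZT20 went with base composition over the list, and the coding starts of the 2 subunits raised most and the 2 lowered most, by the mean of both genotypes, are printed as its extremes. Each line gives the leading 120 bases of the coding sequence, 5′ to 3′, from GENCODE M21 (GRCm38), with G and C in capitals.
Cox7b: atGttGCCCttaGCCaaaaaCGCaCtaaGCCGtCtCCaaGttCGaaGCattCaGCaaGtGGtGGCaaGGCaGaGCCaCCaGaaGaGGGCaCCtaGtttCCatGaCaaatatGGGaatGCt
Uqcrb: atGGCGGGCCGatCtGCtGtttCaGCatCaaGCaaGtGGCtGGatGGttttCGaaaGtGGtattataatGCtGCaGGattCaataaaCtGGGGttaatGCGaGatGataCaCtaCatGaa
Uqcrc1: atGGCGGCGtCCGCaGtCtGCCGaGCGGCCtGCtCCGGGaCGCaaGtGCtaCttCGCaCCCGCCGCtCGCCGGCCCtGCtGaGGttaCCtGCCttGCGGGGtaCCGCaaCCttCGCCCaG
Ndufv1: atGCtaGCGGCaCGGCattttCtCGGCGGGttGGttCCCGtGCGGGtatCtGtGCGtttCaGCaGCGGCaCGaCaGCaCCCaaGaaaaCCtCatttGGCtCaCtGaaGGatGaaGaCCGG
G and C made up 50%, 44.2%, 70.8% and 57.5% of these stretches and 47.3%, 42.9%, 57.0% and 55.9% of the whole coding sequences, in the order printed. The mean of ZT16 and ZT20 minus that of the other times, in log2, was 1.21, 1.11, -0.74 and -0.70 in wild type and 0.99, 1.02, -0.88 and -0.82 in knockout.

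These 4 were picked for their change and do not stand for the list, so all members are described next. The 84 were divided into 3 groups of 28 by the GC content of 1 principal transcript per gene. The low group (39.5% to 48.8% GC) stood higher at ZT16 and ZT20 by a median of 0.76 in wild type and 0.67 in knockout, the middle group by 0.46 and 0.38, and the high group (53.9% to 60.4%) by 0.25 and 0.16. The median was thus above 0 in each group, and 20 of 28 members of the high group stood higher in wild type. Single members went against the order: Ndufa13 (60.4% GC) stood higher by 0.68 in wild type, and Sdhc (48.7% GC) stood lower, at -0.34. Over the 84 members Spearman's rho between GC content and this difference was -0.46, and -0.59 with the median GC of each gene's transcripts; over 12906 genes with a value it was -0.69. All genes share the same libraries and no p is given. With each library's trend against GC removed, 66 members were rhythmic in wild type, 49 of them among the 55, and 53 in knockout, 36 of them among the 52. Time of day and anything else shared by the libraries of ZT16 and ZT20 cannot be told apart.

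**Figure D5:**
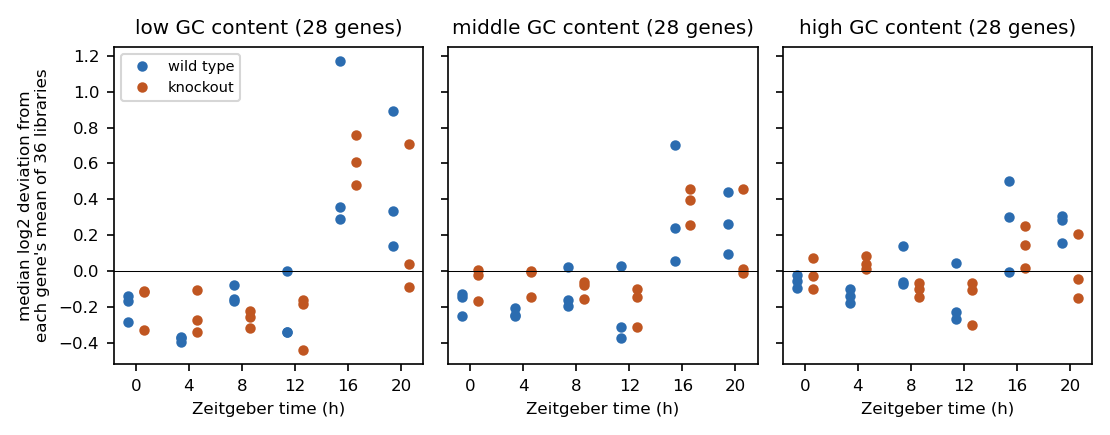
Median log2 deviation of 28 members per panel from each gene's own mean over 36 libraries, against zeitgeber time, 1 point per library, for members of low, middle and high GC content. In the low group the libraries of ZT16 and ZT20 run from -0.09 to 1.17 and the others from -0.44 to 0.00, and the gap is smaller in the high group.

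Subunits whose 24 h curve passed were counted by complex. As above, few members passed without the libraries of ZT16 and ZT20. With all libraries, 56.4% of all genes passed in wild type and 48.3% in knockout. All 8 subunits of complex III passed in wild type and 5 in knockout. For complex I it was 24 of 36 core and accessory subunits in wild type and 20 in knockout, for complex V 10 of 15 in each genotype, for complex IV 6 of 12 and 8, and for complex II 2 of 4 and 3. The 4 subunits of complex II went in different directions at ZT16 and ZT20: in wild type the mean there minus that of the other times, in log2, was 0.66 for Sdhb, 0.37 for Sdhd, -0.34 for Sdhc and -0.20 for Sdha. Sdhb ran from 226 to 717 CPM in wild type (median 290) and from 236 to 483 CPM in knockout (median 267), with its highest liver at ZT16 in both, and Sdhc ran from 143 to 255 CPM and from 144 to 254 CPM. Sdha, the largest subunit of complex II, had no rhythm that passed in either genotype, with 404 to 653 CPM in wild type and 433 to 709 CPM in knockout. These counts were not compared by a test between complexes.

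Set per kilobase of the principal transcript, levels within the list spanned a wide range. Ndufa4, now counted with complex IV, led with 842 CPM per kilobase, followed by Atp5b with 734 and Atp5g3 with 653. Medians by complex were not tested; the lowest members were Ndufa4l2 with 1.69 and Cox7a1 with 3.36 CPM per kilobase. A part of these levels is uncertain, since many members have processed pseudogenes: 21 of 84 shared at least 10% of their 50-base stretches with another annotated gene. The share was largest in Atp5g2 (87.4%), Atp5l (68.5%) and Cox7c (53.0%). Of the members called over all times, Cox7a2l (19.8%) and Ndufb8 (13.5%) were among the 21. How the counting treated reads with several matches is not given in the sources used here.

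The promoters of the members were searched for 7 motifs on both strands, in windows from 250 bases before to 50 bases after the start. RefSeq windows matched 71 of the 84 members, 77 windows in all, and were set beside all 32851 windows of the table. The NRF1 motif (GCGCA, any base, GCGC), of a factor known to drive respiratory genes, was found in 24.7% of the members' windows and 4.60% of all. The ETS motif CCGGAAG was in 22.1% and 8.86%, the YY1 motif AAGATGGC in 15.6% and 2.75%, and the ERR motif AAGGTCA in 10.4% and 4.72%. The E-box CACGTG was in 11.7% and 7.15%, the D-box TTATGTAA in 1.30% and 0.938%, and the GC box GGGCGG in 41.6% and 35.7%. Matches may overlap, as the GC boxes of Ndufaf4 do.

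The E-box fell in 7 members: Ndufv1, Ndufa7, Atp5f1, Atp5g1, Atp5g3, Atp5l and Atp5sl. None of the 7 was called over all times, and their log2 differences lay between -0.11 (Atp5sl) and 0.09 (Ndufa7). Atp5sl alone among them was called at a single time, ZT8, and its E-box is in capitals in the promoter printed above. A match of letters is a description and not a bound site.

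Other genes that serve the pathway were counted from lists, over all times and by the same test. Of 29 further genes outside the naming rule, most of them assembly factors, 10 were higher and 0 lower. The higher ones were led by Cox19 (0.48 ± 0.06) and Sco2 (0.88 ± 0.13), which deliver copper to complex IV. Surf1 (0.26 ± 0.05), which helps insert the heme of complex IV, was also among them. Of 76 mitochondrial ribosomal proteins, which translate the mitochondrial subunits, 25 were higher and 1 lower (Mrps21, -0.23 ± 0.05), with a median of 0.13. Among 12 genes of ubiquinone synthesis, 4 were higher and 2 lower: Adck3 (Coq8a) rose from 473 ± 225 CPM to 979 ± 263 CPM (SD, n = 18), a log2 difference of 1.18 ± 0.09, and Coq10b was lower (-0.81 ± 0.13). The differences of Adck3, Coq10b and Sco2 changed with time (adjusted p = 6.51e-05, 0.000159 and 0.0155 by edgeR). Their values above are thus means of unequal differences. The counts of these lists come with 17.6% of all genes called higher and 18.1% lower.

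Electron carriers gave 3 higher and 0 lower of 10, with Etfdh, which feeds electrons from fatty acid oxidation to ubiquinone, at 0.33 ± 0.06; Cycs, cytochrome c, differed by -0.27 ± 0.12 and did not pass. Citric acid cycle genes gave 2 higher and 4 lower of 17, with Cs (citrate synthase) at 0.37 ± 0.07, and Suclg2 at -0.33 ± 0.05. Genes for expression of mitochondrial DNA gave 3 higher and 1 lower of 13, with Top1mt, the mitochondrial topoisomerase, at 0.81 ± 0.06 and Mterfd3 at -1.30 ± 0.15. Regulators gave 1 higher and 2 lower of 12: Ppara, a fatty acid sensor, fell from 60.3 ± 28.4 CPM to 31 ± 11.4 CPM (SD, n = 18; log2 difference -0.92 ± 0.16), Gabpa differed by -0.19 ± 0.06, and Esrrg was the higher one (0.41 ± 0.14). Beside the counts of these lists, too, stand 17.6% of all genes called higher and 18.1% called lower. Genes made from mitochondrial DNA were not analysed here.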

How the data were processed

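Stranded poly(A) libraries of 36 livers were sequenced on an Illumina HiSeq, per the labels' protocols. CASAVA, STAR 2.4.0f1 and mouse build mm9 are named in the submitters' processing notes; the counting program is not given in the sources used here. The deposited values are whole-number read counts per gene, unnormalized, and libraries had a median total of 12744399.

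The members and lists were chosen with earlier results of these data known. Genes passing filterByExpr over 12 groups (minimum count 10) were scaled by TMM and tested with edgeR 4.0.16 in R 4.3.3: group means plus sex, contrasts of knockout minus wild type over all times and at each time, a test of equal differences with 5 degrees of freedom, and 24 h cosine terms per genotype. P-values were adjusted over 13201 genes and called below 0.05. DESeq2 1.42.0 was an alternative. CPM used TMM-scaled totals. Every member could be named, but the values of 1 member and 1 listed gene are not reported here; the rule for values per liver (members with calls, the most abundant and most rhythmic of each complex, and paralogs) was kept in part: some have them at selected times only, others a range, mean or difference. List genes were named by smallest p. The edgeR steps were tested on simulated counts. Transcript GC and length came from GENCODE M21, 1 principal transcript per gene, for 97.8% of tested genes; coordinates on mm9 are those of the deposited table. Replicate pairs of a group differed beyond counting noise in all 36 pairs (chi-square per gene 10.5 to 212). Replicate names are not from the labels and pair nothing; cage was used in no fit.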

Additional observations from a re-analysis of the deposited data

How the results depend on the processing

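Over 8 alternative settings, members higher in knockout over all times numbered 11 instead of 6 without the ZT16 and ZT20 libraries, and members lower 3 instead of 5 with the GC trend removed. At ZT0 the 1 call became 0 without a low-count filter, without the sex term and with the GC trend removed. At ZT4 it became 0 in those 3 settings, with DESeq2's size factors and with a minimum of 1 CPM, but 7 without ZT16 and ZT20 and 2 by DESeq2. At ZT8 the 1 call became 2 without a filter, 5 without ZT16 and ZT20, and 2 by DESeq2; at ZT12 the 2 calls became 1 and 5 in the first 2 of these settings; at ZT16 the 2 became 1 without the sex term and 1 with age added, but 3 with the GC trend removed (with Ndufc1) and 3 by DESeq2 (with Atp5a1). Rhythmic members became 3 in wild type and 1 in knockout without ZT16 and ZT20. Fits without those libraries hold fewer times; other causes were not tested.

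With 1 library left out at a time, members higher ran from 5 to 7 and lower from 4 to 10 (8 without wild type replicate 2 and 10 without knockout replicate 2 of ZT20). Called members ran from 0 to 2 at ZT0, ZT4, ZT8 and ZT12, from 0 to 6 at ZT16 and from 0 to 4 at ZT20. Rhythmic members ran from 48 to 59 in wild type and from 46 to 57 in knockout, and changes with time or of rhythm stayed at 0. No named member changed sign over all times where either of the compared fits called it. Some uncalled members did change sign, such as Ndufa4 (-0.10 to 0.06) and Atp5c1 (-0.06 to 0.01). Without wild type replicate 3 of ZT16, whose counts go against its sex label, 5 members were higher and 6 lower. No paired analysis was possible because the labels number no replicates. The 3 mice per group limit what single times can show.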
